A study of Homo sapiens with 10 samples.

Results

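Intermediate filament genes were examined in cells depleted of the DEAD-box helicase DDX41. The 8 genes at the centre, the keratin genes KRT14, KRT17, KRT18, KRT19, KRT7 and KRT8, the vimentin gene VIM and the nestin gene NES, belong to a family of 70 genes and to the 63299 genes of the count tables. They were chosen by their read counts in DDX41 knockdown against control knockdown, where KRT14 was among the strongest falls. Their differences between the groups are therefore a description, given without a test. All 8 genes were found in the tables, and 7 of the 8 passed the filter on low counts, with KRT19 below it.

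The cells were U2OS, an established human osteosarcoma line. Pooled siRNAs were applied for 48 h, either a control pool (siCtrl, 5 libraries) or a pool against DDX41 (siDDX41, 5 libraries), and polyadenylated RNA was sequenced. Total counts lay between 23393764 and 24598860 in siCtrl and between 21807041 and 24896398 in siDDX41 libraries. The labels do not say whether the libraries of a group came from separate cultures, so p-values measure only the spread between these samples, which may be technical.

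Intermediate filaments are rope-like polymers that give cells and nuclei mechanical strength. Keratins are obligate pairs of an acidic type I and a basic type II chain and are typical of epithelia, whereas vimentin is the type III protein of mesenchymal cells and nestin a type IV protein known from progenitor cells. Plakins and desmosomal or hemidesmosomal proteins tie the filaments to membranes and to other parts of the cytoskeleton.

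DDX41 (ENSG00000183258.11, chromosome 5) served as the check of the labels. Its normalised read count (CPM, counts scaled to a common library size with TMM factors) was 49.1, 49.4, 47.4, 47.2 and 50.5 in siCtrl replicates 1 to 5. In siDDX41 replicates 1 to 5 it was 11.5, 13.7, 12.4, 11.2 and 12.4 CPM. The groups did not overlap, and 25.1% of the control level was left. DDX41 had a log2 fold change of -1.99 (SE 0.05, n = 5 per group, adjusted p = 4.47e-24 in edgeR's quasi-likelihood test, and p = 0.00794 in an exact two-sided permutation test, which is the lowest value possible with these group sizes).

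The osteosarcoma label was set against marker genes. Of 9 osteoblast lineage markers 5 were tested, and SPARC was the most abundant, with 2807 ± 32.8 CPM in siCtrl and 3181 ± 96.5 CPM in siDDX41 libraries (SD, n = 5). The list summed to 4814, 4825, 4698, 4650 and 4862 CPM in siCtrl and 4816, 5200, 4986, 4971 and 5187 CPM in siDDX41 replicates 1 to 5. COL1A1 had 1875 ± 100 and 1766 ± 94.6 CPM (SD, n = 5), and RUNX2 had 32.4 ± 1.25 and 24.6 ± 0.827 CPM (SD, n = 5). Defining genes of mature osteoblasts were at or near 0, with 2 and 2 reads of SP7, 11 and 10 of BGLAP and 0 and 1 of IBSP over the siCtrl and the siDDX41 libraries. COL1A2, the partner chain of COL1A1, had only 54 and 37 reads. ALPL fell from 5.01 ± 0.811 to 3.08 ± 0.491 CPM (SD, n = 5, log2 fold change -0.70, adjusted p = 5.51e-06 in edgeR's test), and CDH11 rose from 50.1 ± 1.16 to 57.2 ± 4.83 CPM (SD, n = 5, log2 fold change 0.19, adjusted p = 0.000402 in edgeR's test). The lineage list was thus expressed only in part.

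Epithelial and keratinocyte markers were also read, since most of the chosen genes are keratins. Of 10 epithelial markers 4 were tested, with CLDN4 as the most abundant, and CLDN3 had no read. Their summed level was 47.5, 49.3, 44.6, 49.0 and 51.5 CPM in siCtrl and 27.7, 29.9, 27.7, 25.9 and 27.2 CPM in siDDX41 replicates 1 to 5. The claudin gene CLDN4 (log2 fold change -1.13) and the mucin gene MUC1 (-1.18) fell, with adjusted p = 1.39e-16 and 1.31e-12 in edgeR's test. EPCAM, with 7.99 ± 0.447 and 8.31 ± 0.742 CPM (SD, n = 5), and CDH1, with 0.874 ± 0.0687 and 0.928 ± 0.22 CPM (SD, n = 5), did not pass the test. Most of the fall in the sum came from CLDN4 (29.2 to 13.3 CPM) and MUC1 (9.30 to 4.11 CPM). Below the filter, CLDN7 and CDH3 had fewer reads in siDDX41 libraries, and ESRP1, ESRP2 and RAB25 had more. In the same libraries KRT14 was low, while KRT8 and KRT18 were higher. The part of the epithelial markers in the keratin values was not tested. In bulk RNA, fewer cells with a transcript and less of it per cell cannot be told apart.

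Of 10 keratinocyte markers 4 were tested, and 6 of the 10 also stand in the lists of filament genes, linkers and regulators. The most abundant was the laminin gene LAMB3, with 253 ± 9.4 and 260 ± 8.19 CPM (SD, n = 5). The summed level of the list was 297, 304, 277, 294 and 299 CPM in siCtrl and 287, 305, 291, 303 and 299 CPM in siDDX41 replicates 1 to 5. KRT1 had no read in any library and TP63, the defining transcription factor of basal keratinocytes, had 14 reads in siCtrl and 4 in siDDX41 libraries. Most of the sum came from LAMB3 and KRT10, and the summed levels overlapped. KRT5, a marker given without a test since it reached the filter in all libraries of siCtrl only, had 5.24 ± 0.290 and 0.488 ± 0.121 CPM (SD, n = 5). The hemidesmosomal collagen gene COL17A1 fell from 4.81 ± 0.305 to 3.65 ± 0.376 CPM (SD, n = 5, log2 fold change -0.40, adjusted p = 0.000482 in edgeR's test).

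Of 5 leukocyte markers 1 was tested, PTPRC, the most abundant, and CD3E was at 0. They summed to 0.286, 0.367, 0.631, 0.385 and 0.542 CPM in siCtrl and 0.644, 0.521, 0.726, 0.724 and 0.766 CPM in siDDX41 replicates 1 to 5. Of 4 endothelial markers 2 were tested, VWF, the most abundant, and CDH5. They summed to 4.86, 5.22, 6.01, 5.48 and 5.42 CPM in siCtrl and 1.66, 2.69, 2.94, 2.26 and 2.17 CPM in siDDX41 replicates 1 to 5. The part of these markers in the values of the filament genes was not tested.

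The type I keratins are taken first. KRT14 (ENSG00000186847.5, chromosome 17 of GRCh38, 41582279 to 41586895, minus strand), the partner of KRT5 in basal cells of stratified epithelia, had 16.1, 16.3, 18.1, 17.2 and 18.4 CPM in siCtrl replicates 1 to 5. In siDDX41 replicates 1 to 5 it had 1.66, 2.87, 1.41, 1.45 and 1.53 CPM. All siDDX41 libraries lay below all siCtrl libraries, and siDDX41 replicate 2 stood above the other knockdown libraries. The log2 fold change of KRT14 was -3.27 (SE 0.11, n = 5 per group). Of the 16143 tested genes, 25 had a value this low or lower, KRT14 included, and 3 of these had a mean of at least 5 CPM. Of the 84-base stretches of KRT14 transcripts, the length of the reads, 5.77% also occur in transcripts of other genes, KRT16 before all.

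KRT17 (ENSG00000128422.15, chromosome 17, 41619442 to 41624842, minus strand), a keratin known from injured and appendage epithelium, had 659, 702, 637, 666 and 705 CPM in siCtrl replicates 1 to 5. It had 321, 472, 358, 412 and 456 CPM in siDDX41 replicates 1 to 5. The groups did not overlap, but the knockdown libraries were spread more widely, with 404 ± 63.9 CPM against 674 ± 29.2 CPM (SD, n = 5). The log2 fold change was -0.74 (SE 0.10). KRT19 (ENSG00000171345.13, chromosome 17, 41523617 to 41528308, minus strand), a keratin of simple epithelia, had 6, 5, 7, 7 and 5 reads in siCtrl and 0, 2, 0, 0 and 2 reads in siDDX41 replicates 1 to 5. The sums of 30 and 4 reads differ 7.33-fold after scaling to library size. This ratio rests on few reads and is given without a test, since the contrast chose KRT19.

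KRT18 (ENSG00000111057.10, chromosome 12, 52948871 to 52952906, plus strand), the type I keratin of simple epithelia, went the other way. It had 468, 454, 421, 441 and 436 CPM in siCtrl and 869, 847, 818, 931 and 907 CPM in siDDX41 replicates 1 to 5. Every siDDX41 library was above every siCtrl library, and the log2 fold change was 0.98 (SE 0.03, n = 5 per group). Its type II partner KRT8 (ENSG00000170421.12, chromosome 12, 52897187 to 52949954, minus strand) had 576, 629, 541, 568 and 594 CPM in siCtrl replicates 1 to 5. In siDDX41 replicates 1 to 5, KRT8 had 769, 844, 736, 820 and 840 CPM. These groups did not overlap either, and the log2 fold change of KRT8 was 0.46 (SE 0.04). The ratio of KRT8 to KRT18 in CPM went from 1.31 ± 0.0625 to 0.918 ± 0.0473 (SD, n = 5), so both were higher but KRT18 by more.

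Annotated exons of KRT8 and KRT18 share 525 bases on opposite strands, 7.63% of the exon bases of KRT8 and 17.1% of those of KRT18. The library kit marks strand, but the strand setting of the counting is not given in the sources used here, so reads of the shared bases may have been left out or assigned to either gene. Processed pseudogenes of KRT8 summed to 11.3 ± 0.449 CPM in siCtrl and 15.1 ± 0.519 CPM in siDDX41 libraries (SD, n = 5), 1.94% of the control level of KRT8. Of these, KRT8P12 had the most reads, with 6.01 and 8.93 CPM. KRT8P36 had 1.79 and 1.94 CPM and KRT8P33 had 1.51 and 2.03 CPM, so their order differed between the groups. For KRT18 the pseudogenes summed to 2.57 ± 0.125 and 3.58 ± 0.333 CPM (SD, n = 5). The pseudogene reads were thus few beside those of KRT8 and KRT18.

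KRT7 (ENSG00000135480.14, chromosome 12, 52232520 to 52252186, plus strand), a type II keratin of glandular epithelia, was low, with 3.76, 4.16, 3.49, 3.55 and 3.50 CPM in siCtrl replicates 1 to 5. In siDDX41 replicates 1 to 5, KRT7 had 3.68, 3.52, 4.11, 3.11 and 3.49 CPM. The groups overlapped, and the log2 fold change of -0.04 was smaller than its SE of 0.10.

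VIM (ENSG00000026025.14, chromosome 10, 17228241 to 17237593, plus strand), the vimentin gene, had 2484, 2543, 2411, 2434 and 2454 CPM in siCtrl replicates 1 to 5. It had 2331, 2264, 2329, 2313 and 2368 CPM in siDDX41 replicates 1 to 5. The groups did not overlap, yet the log2 fold change was only -0.09 (SE 0.02). The antisense gene VIM-AS1 shares 656 exon bases with VIM and rose from 6.99 to 13.3 CPM (log2 fold change 0.92, adjusted p = 1.92e-11 in edgeR's test), and without a known strand setting the shared reads are uncertain.

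NES (ENSG00000132688.10, chromosome 1, 156668763 to 156677407, minus strand) had 281, 256, 279, 276 and 273 CPM in siCtrl replicates 1 to 5. It had 125, 137, 122, 127 and 130 CPM in siDDX41 replicates 1 to 5. The groups were far apart relative to their spread, with a log2 fold change of -1.09 (SE 0.03, n = 5 per group). No 84-base stretch of NES transcripts occurs in transcripts of another gene.

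Over all tested genes, 30.3% were called higher and 32.1% lower by edgeR at an adjusted p under 0.01, and since the contrast chose the members, no count of calls is given for them. Per length of exons, the order of the members in siCtrl libraries was VIM (476 ± 9.8 CPM per kb), KRT17 (225 ± 9.7), KRT18 (145 ± 5.8), KRT8 (84.5 ± 4.8), NES (49.0 ± 1.8), KRT14 (7.62 ± 0.46), KRT7 (0.923 ± 0.071) and KRT19 (0.107 ± 0.019, SD, n = 5 throughout). No neighbours in this order overlapped in siCtrl libraries. In siDDX41 libraries KRT18 came before KRT17, with 285 ± 15 and 135 ± 21 CPM per kb (SD, n = 5). There the libraries of KRT17 overlapped those of KRT8, and those of KRT7 overlapped those of KRT14. Per length of the longest transcript the siCtrl order was the same, with an overlap of KRT18 and KRT8, and in siDDX41 libraries KRT8 came before KRT17, with 280 ± 16 and 220 ± 35 CPM per kb (SD, n = 5) and overlapping libraries. KRT7 came before KRT14 in siDDX41 libraries on both scales, without overlap per length of the longest transcript.

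Summed per length of exons, the 28 type I keratin genes had 396, 407, 375, 392 and 403 CPM per kb in siCtrl and 407, 450, 403, 458 and 465 CPM per kb in siDDX41 replicates 1 to 5. The 26 type II genes had 409, 434, 372, 394 and 404 CPM per kb in siCtrl and 306, 329, 312, 330 and 335 CPM per kb in siDDX41 replicates 1 to 5. On this scale the type II sums did not overlap between the groups, and the type I sums did. The ratio of type I to type II was 0.981 ± 0.0284 in siCtrl and 1.35 ± 0.0415 in siDDX41 libraries (SD, n = 5). With the longest transcript as the length, this ratio was 1.14 ± 0.0309 and 1.31 ± 0.0369 (SD, n = 5). On that scale the type II sums were 536 ± 29.5 and 500 ± 21.7 CPM per kb (SD, n = 5) and overlapped between the groups, so the separation of the type II sums depends on the length used. Within type I per length of exons, the share of KRT18 went from 36.7% to 65.4% and that of KRT17 from 57.0% to 30.8%. Within type II on the same scale, KRT8 went from 21.0% to 36.1% and KRT75 from 15.8% to 4.26%. These sums include chosen members and are therefore a description as well. KRT81, which was not chosen, held 36.6% of the type II sum in siCtrl and 28.5% in siDDX41 libraries on the same scale. Per length of the longest transcript these shares of the type II sum were 37.9% and 56.0% for KRT8 and 27.5% and 18.4% for KRT81. For KRT75 they were 11.9% and 2.75%. The order of KRT8 and KRT81 in siCtrl libraries thus depends on the length used. KRT80, also not chosen, held 25.6% of the type II sum in siCtrl and 30.7% in siDDX41 libraries per length of exons. Per length of the longest transcript, KRT80 held 21.5% and 22.2%.

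**Figure D1:**
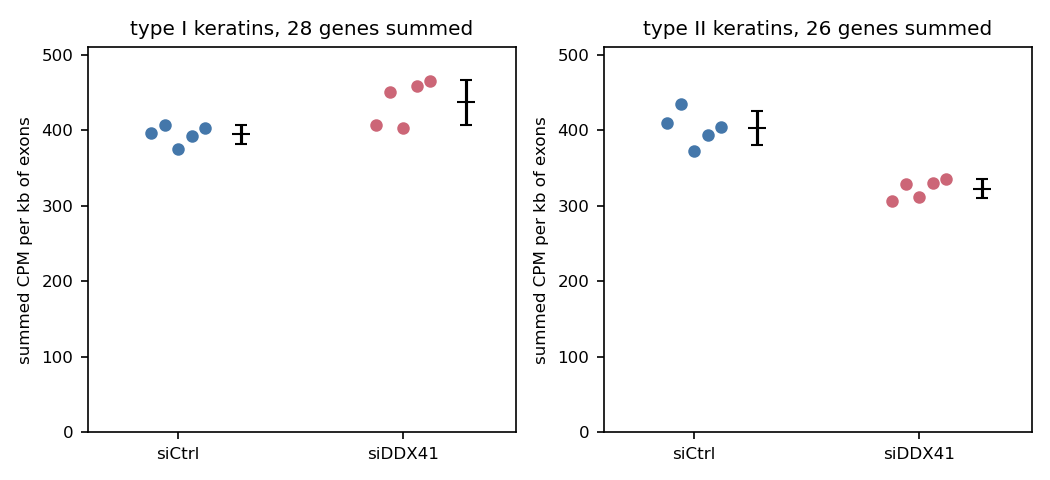
Summed level of all type I (28 genes) and type II (26 genes) keratin genes in each library, in CPM per kb of exons (vertical axes from 0), with points for the 5 libraries of each group and bars for the mean with SD. The type II sums lie between 372 and 434 in siCtrl and between 306 and 335 in siDDX41 libraries.

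Among the 62 family genes that were not chosen, 17 were tested. Of these, 11 were lower, 1 was higher and 5 were not called, with a median log2 fold change of -0.83 beside -0.0014 over all tested genes, of which 30.3% were higher and 32.1% lower. Part of this count was set by the filter on low counts. The genes KRT16, KRT5, KRT6B, KRT71, KRT86 and DES reached the cutoff of 0.422 CPM in all siCtrl libraries but not in all siDDX41 libraries, so 6 of the 11 lower genes passed through the group in which they were high. Over all tested genes with a mean under 5 CPM, 25.6% were lower and 16.0% higher. Of the 10 family genes with a mean of at least 5 CPM, 5 were lower, 1 was higher and 4 were not called, with a median log2 fold change of -0.26. Over all 11278 tested genes at that level, 3932 were lower and 4111 higher, with a median of 0.02.

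KRT75, a type II keratin of hair follicles, had 132, 142, 136, 141 and 138 CPM in siCtrl replicates 1 to 5. In siDDX41 replicates 1 to 5, KRT75 had 24.6, 33.7, 29.3, 28.6 and 33.4 CPM. It fell in all knockdown libraries, with a log2 fold change of -2.20 (SE 0.06, adjusted p = 6.20e-14 in edgeR's test). KRT5, the type II partner of KRT14, had 5.15, 5.02, 5.64, 4.96 and 5.46 CPM in siCtrl and 0.368, 0.434, 0.403, 0.639 and 0.596 CPM in siDDX41 replicates 1 to 5. All siDDX41 libraries lay below all siCtrl libraries (log2 fold change -3.41, SE 0.14), but KRT5 reached the cutoff on low counts in all libraries of siCtrl only, so this is given without a test.

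KRT15, a basal cell keratin, fell from 9.27 ± 1.11 to 2.56 ± 0.398 CPM (SD, n = 5, log2 fold change -1.86, adjusted p = 1.65e-15 in edgeR's test). KRT81, a hair keratin, fell from 285 ± 27 to 178 ± 6.79 CPM (SD, n = 5, log2 fold change -0.68, adjusted p = 6.70e-07 in edgeR's test). Of the 84-base stretches of KRT81 transcripts, 34.2% occur in other genes, most of them in KRT86, so reads of the pair are uncertain. SYNC fell from 19.5 ± 1.03 to 10.4 ± 1.72 CPM (SD, n = 5, log2 fold change -0.90, adjusted p = 1.14e-09 in edgeR's test). Of the exon bases of SYNC, 58.0% are also exon bases of RBBP4, which is read in the opposite direction, and RBBP4 fell too (log2 fold change -0.48, adjusted p = 4.23e-16 in edgeR's test), so the source of the SYNC reads is uncertain.

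The neurofilament gene NEFL was the 1 gene called higher, with 89.2 ± 1.45 and 99.2 ± 5.51 CPM (SD, n = 5, log2 fold change 0.15, adjusted p = 0.000239 in edgeR's test). Of the lamin genes, which encode the filaments of the nuclear lamina, LMNB2 fell from 238 ± 14.8 to 174 ± 5.00 CPM (SD, n = 5, log2 fold change -0.45, adjusted p = 5.95e-12 in edgeR's test). LMNA had 371 ± 25.4 and 394 ± 8.88 CPM, and LMNB1 436 ± 5.91 and 417 ± 7.85 CPM (SD, n = 5), with adjusted p = 0.0332 and 0.021 in edgeR's test, above the threshold. KRT80, with 450 ± 18.6 and 432 ± 16.3 CPM (SD, n = 5), and KRT10, with 30.5 ± 1.03 and 32.6 ± 1.38 CPM (SD, n = 5), did not pass either. The family thus held abundant genes that were not called beside those that fell.

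Of the family genes below the filter, 23 had no read in any library. KRT9 had 28 reads in siCtrl and 0 in siDDX41 libraries, which is at least 9.13-fold lower when 3 reads over the group are taken as the floor. The astrocyte filament gene GFAP had 41 and 1 reads, a 40.1-fold ratio with an exact 95% interval of 6.80 to 1620. KRT34 had 10 reads in siCtrl and 42 in siDDX41 libraries, the opposite order. These 3 genes were named after their values were seen, and the interval covers counting error only. Fewer reads in siDDX41 libraries were also seen for KRT13, KRT6A, KRT83, PRPH, NEFM and NEFH. For KRT4 (21 and 16 reads), KRT79 (22 and 24) and BFSP1 (22 and 37), the exact 95% intervals included equal levels. These are the other unchosen family genes below the filter with at least 10 reads.

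**Figure D2:**
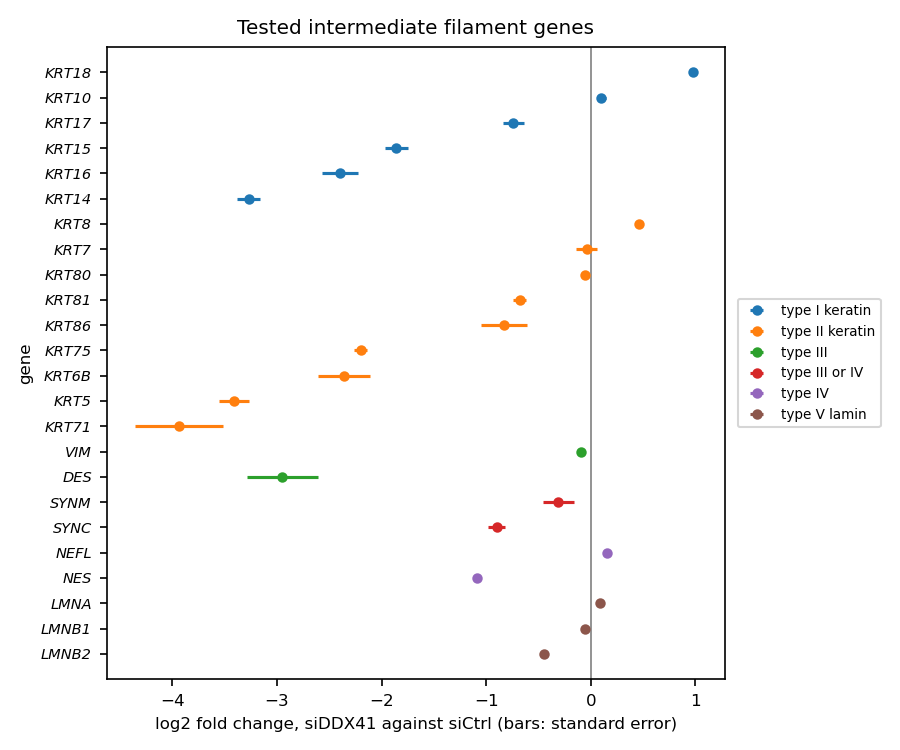
Log2 fold change of siDDX41 against siCtrl for the 24 tested intermediate filament genes, grouped by type, on a horizontal axis with 0 marked by a line and bars for the standard error. KRT18 (0.98) and KRT8 (0.46) lie farthest right, and KRT14 (-3.27), KRT5 (-3.41) and KRT71 (-3.94) lie farthest left.

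Type II keratin genes lie together on chromosome 12 (52168996 to 52952906), with KRT18 at 1 end, and the type I genes on chromosome 17 (40697991 to 41624842). Of the 27 keratin genes of the first cluster 10 were tested, and of the 27 of the second cluster 5. KRT14 lies 10.2 kb from KRT9 and 22.9 kb from KRT16, which had 3.71 and 0.705 CPM in siCtrl and siDDX41 libraries (log2 fold change -2.40). KRT17 lies 3.54 kb from KRT16 and 1.69 kb from the pseudogene KRT42P, which had 2.28 and 0.213 CPM (log2 fold change -3.38). KRT16 and KRT42P reached the cutoff on low counts in all libraries of siCtrl only, so their values are given without a test. KRT19 lies 1.09 kb from KRT15, which fell, while KRT10 in the same cluster did not pass the test.

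At the other end of the chromosome 12 cluster, KRT18 lies 53.4 kb from EIF4B, a translation factor gene outside the family, with 525 and 523 CPM (log2 fold change -0.0046, adjusted p = 0.88 in edgeR's test). KRT8 overlaps KRT18, and its other direct neighbour, RPL7P41, had no read. KRT7 lies 2.93 kb from METTL7AP1, also without a read, and overlaps KRT7-AS, which had 18 reads in all, and KRT86, which had 0.949 and 0.534 CPM with overlapping groups (log2 fold change -0.83). NES lies 7.34 kb from BCAN-AS2, which had 7.36 and 6.61 CPM and did not pass the test (adjusted p = 0.121 in edgeR's test). On its other side the nearest tested gene, CRABP2, 22.2 kb away, fell from 24.2 to 16.8 CPM (log2 fold change -0.53, adjusted p = 1.42e-09 in edgeR's test).

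**Figure D3:**
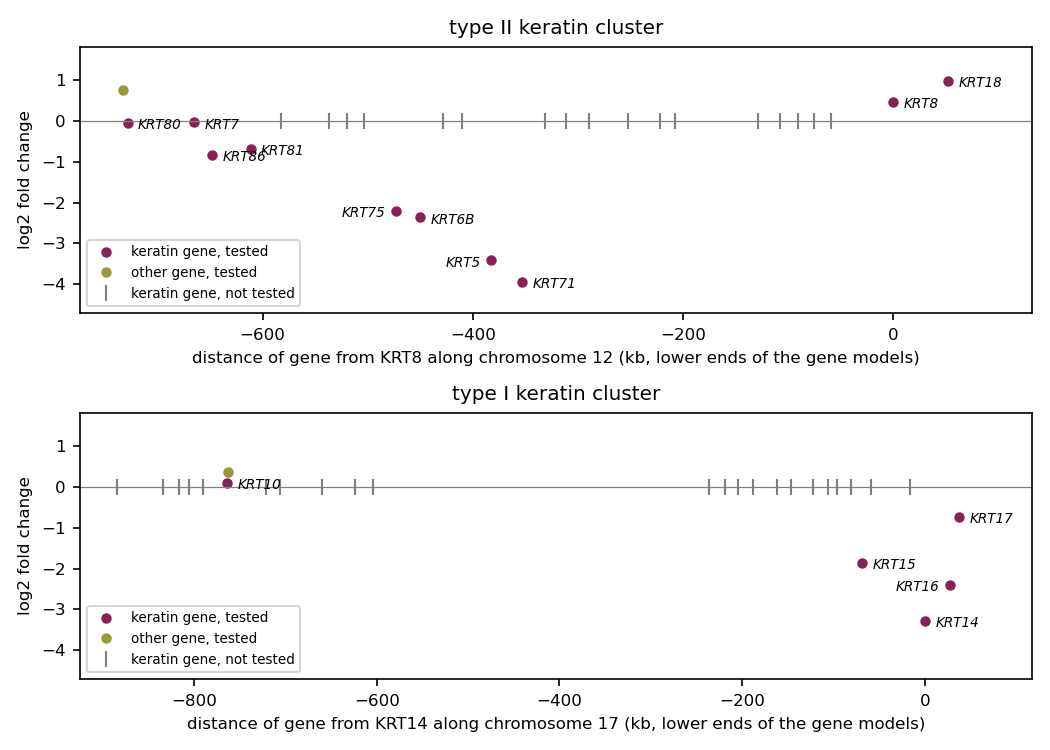
Log2 fold change of siDDX41 against siCtrl (vertical axes) of tested genes in both keratin clusters by distance in kb from KRT8 (upper panel) or KRT14 (lower panel), with grey ticks for keratin genes below the filter on low counts. KRT8 (0.46) and KRT18 (0.98) lie above 0 at the right of the upper panel, and KRT6B, KRT5, KRT71, KRT86 and KRT16 reached the cutoff on low counts in all libraries of siCtrl only.

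Promoter windows of 250 bases before the start were read for genes that differed strongly or little. The set of RefSeq promoter windows used here (GRCh38.p14) held 3 of the 8 members, KRT8, VIM and NES. It held no window for KRT14, KRT7, KRT17, KRT18 or KRT19. The RefSeq start of KRT8 lies 21393 bases from the start of its canonical GENCODE transcript, so its window is not shown. The windows of VIM, NES, KRT5 and KRT75, picked after their values were seen, end where the canonical transcript starts, and capitals mark the motifs found. These are VIM (chr10:17227991-17228240, plus strand), NES (chr1:156677408-156677657, minus strand), KRT5 (chr12:52520395-52520644, minus strand) and KRT75 (chr12:52434372-52434621, minus strand).
VIM: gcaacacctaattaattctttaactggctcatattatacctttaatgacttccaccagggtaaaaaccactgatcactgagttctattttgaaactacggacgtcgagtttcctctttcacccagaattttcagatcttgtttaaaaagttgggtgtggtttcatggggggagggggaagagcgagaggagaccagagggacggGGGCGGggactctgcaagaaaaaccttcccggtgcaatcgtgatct
NES: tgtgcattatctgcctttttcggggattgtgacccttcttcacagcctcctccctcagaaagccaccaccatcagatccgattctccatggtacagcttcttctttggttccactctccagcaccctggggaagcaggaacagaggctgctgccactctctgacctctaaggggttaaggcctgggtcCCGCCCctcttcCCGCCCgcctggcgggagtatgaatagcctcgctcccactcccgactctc
KRT5: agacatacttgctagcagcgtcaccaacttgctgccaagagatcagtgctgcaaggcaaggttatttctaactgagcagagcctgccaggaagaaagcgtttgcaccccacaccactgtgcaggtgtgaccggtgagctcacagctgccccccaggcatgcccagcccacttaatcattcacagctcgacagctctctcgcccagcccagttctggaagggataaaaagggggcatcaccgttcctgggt
KRT75: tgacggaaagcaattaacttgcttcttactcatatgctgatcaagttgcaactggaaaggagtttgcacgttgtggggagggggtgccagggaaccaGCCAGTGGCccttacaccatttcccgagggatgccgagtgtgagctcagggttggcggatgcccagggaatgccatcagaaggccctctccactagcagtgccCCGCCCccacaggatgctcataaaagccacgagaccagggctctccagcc

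The motifs searched on both strands were the TATA box (TATAAA), the GC box (GGGCGG), the AP-1 motif (TGANTCA), the AP-2 motif (GCCNNNGGC) and the CCAAT box (CCAAT). NES held 2 GC boxes, VIM 1 GC box, KRT75 1 GC box and 1 AP-2 motif, and KRT5 none of the 5. Over all 35116 windows of this length, 42.6% held a GC box, 19.8% an AP-2 motif, 10.7% a TATA box, 6.57% an AP-1 motif and 32.0% a CCAAT box. A match describes the letters only.

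Genes that link filaments to membranes, junctions and other filaments were read as a list of 24, of which 15 were tested. Of these 6 were higher, 5 lower and 4 not called, with a median log2 fold change of 0.09 beside -0.0014 over all tested genes, of which 30.3% were higher and 32.1% lower. Of the plakins, large cross-linkers, 3 of the 4 tested genes were higher. The plectin gene PLEC had 762, 962, 795, 792 and 850 CPM in siCtrl and 1175, 1190, 1290, 1060 and 1175 CPM in siDDX41 replicates 1 to 5. PLEC rose (log2 fold change 0.50, SE 0.07, adjusted p = 0.00016 in edgeR's test).

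MACF1, which binds actin and microtubules, rose from 246 ± 35.6 to 408 ± 24.4 CPM (SD, n = 5, log2 fold change 0.73, adjusted p = 0.000122 in edgeR's test). The desmoplakin gene DSP was low and rose from 1.27 ± 0.245 to 2.21 ± 0.338 CPM (SD, n = 5, log2 fold change 0.80, adjusted p = 3.71e-05 in edgeR's test). DST had 242 ± 30.6 and 287 ± 21.3 CPM (SD, n = 5) and did not pass (adjusted p = 0.0374 in edgeR's test). Below the filter, PPL had 72 reads in siCtrl and 22 in siDDX41 libraries, with no overlap between the groups, EPPK1 had 50 and 73 reads, and EVPL 2 and 0. The plakins thus did not all go the same way.

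Desmosome genes went both ways. The plakoglobin gene JUP fell from between 49.4 and 54.5 CPM to 17.2 ± 2.02 CPM (SD, n = 5, log2 fold change -1.59, adjusted p = 1.61e-18 in edgeR's test) and DSC2 from 22.5 ± 1.24 to 13.9 ± 1.09 CPM (SD, n = 5, -0.70, adjusted p = 4.93e-12). PKP2 rose from 73.4 ± 1.57 to 110 ± 4.58 CPM (SD, n = 5, 0.59, adjusted p = 6.58e-16) and PKP4 from 141 ± 4.08 to 159 ± 4.05 CPM (SD, n = 5, 0.17, adjusted p = 5.00e-06), all in edgeR's test. Of the hemidesmosome genes, the tetraspanin gene CD151 fell from 235 ± 14.4 to 69.3 ± 1.82 CPM (SD, n = 5, log2 fold change -1.76, adjusted p = 8.09e-25 in edgeR's test). The integrin gene ITGA6 rose from 218 ± 5.95 to 289 ± 3.88 CPM (SD, n = 5, 0.40, adjusted p = 3.67e-14 in edgeR's test). Its partner ITGB4 had 30.3 ± 2.02 and 26.7 ± 2.21 CPM (SD, n = 5, -0.18, adjusted p = 0.0039 in edgeR's test), a call that was lost with DESeq2 (adjusted p = 0.0112). It was also lost without siCtrl replicate 2 or 5 or siDDX41 replicate 1 or 4, with adjusted p between 0.0124 and 0.0213 in edgeR's test, and over all alternatives it lay between 0.000592 and 0.0213.

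Of 27 genes known to regulate keratins, vimentin or filament turnover, 18 were tested. Among these 6 were higher, 7 lower and 5 not called, with a median log2 fold change of -0.04 beside -0.0014 over all tested genes, of which 30.3% were higher and 32.1% lower. The lower genes include OVOL2, which reached the cutoff on low counts in all libraries of siCtrl only. Of the 12 regulator genes with a mean of at least 5 CPM, 5 were lower, 4 higher and 3 not called. Genes in the epithelial transcription factor class of this list went both ways. EHF had 7.60, 7.31, 9.25, 9.37 and 8.37 CPM in siCtrl and 1.47, 1.52, 0.967, 1.41 and 1.24 CPM in siDDX41 replicates 1 to 5, and fell (log2 fold change -2.67, SE 0.12, adjusted p = 3.87e-18 in edgeR's test). KLF5 rose from 49.9 ± 2.45 to 80.4 ± 4.14 CPM (SD, n = 5, log2 fold change 0.69, adjusted p = 1.39e-15 in edgeR's test). GRHL1 also rose (0.33, adjusted p = 0.00133), and SP1 fell (-0.31, adjusted p = 1.60e-09), both in edgeR's test.

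Of the mesenchymal factors, SNAI1 fell from 11.9 ± 0.756 to 7.89 ± 0.589 CPM and SNAI2 from 14.6 ± 1.5 to 7.57 ± 0.805 CPM (SD, n = 5), with log2 fold changes of -0.60 and -0.94 and adjusted p = 6.74e-09 and 8.64e-12 in edgeR's test. ZEB1 had 64.8 ± 2.41 and 69.2 ± 1.27 CPM (SD, n = 5, adjusted p = 0.0129 in edgeR's test) and was not called. Among genes of filament turnover, CRYAB, a small heat shock protein that binds filaments, fell from 152 ± 6.71 to 41.4 ± 7.05 CPM (SD, n = 5, log2 fold change -1.88, adjusted p = 1.32e-07 in edgeR's test). KLHL24, a ubiquitin ligase adaptor gene, fell from 35.6 ± 0.958 to 27.6 ± 2.27 CPM (SD, n = 5, log2 fold change -0.37, adjusted p = 6.84e-08 in edgeR's test). STUB1, a chaperone-linked ubiquitin ligase gene, rose (0.63, adjusted p = 1.57e-11 in edgeR's test).

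**Figure D4:**
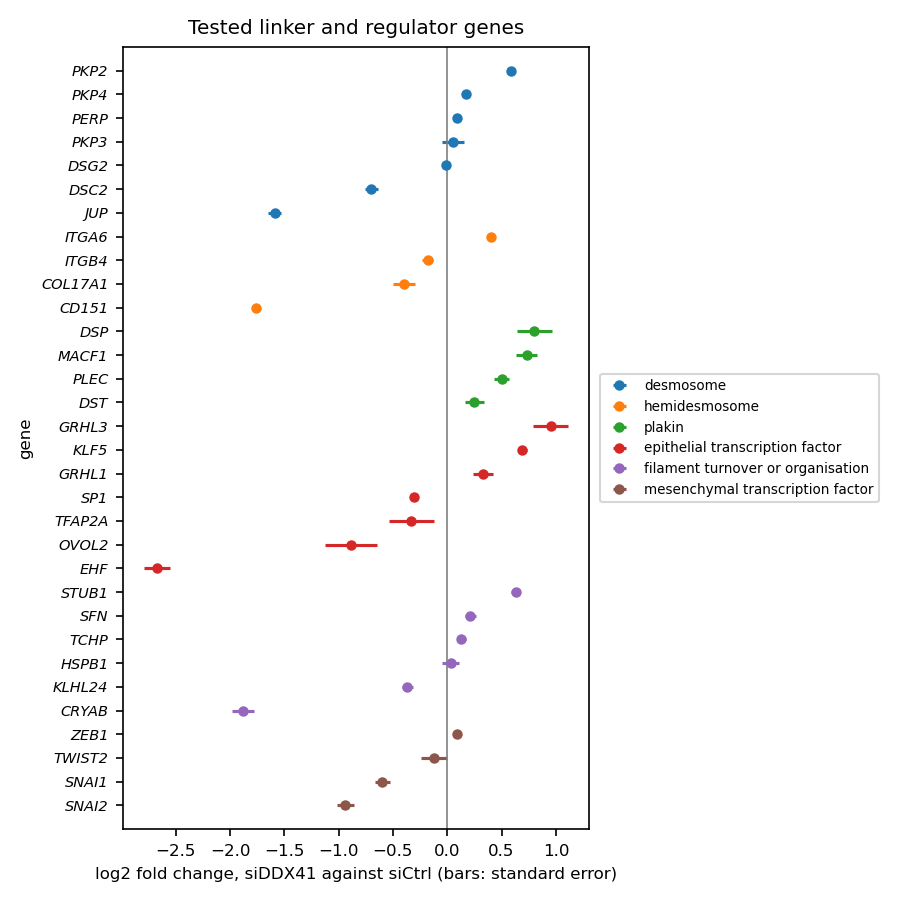
Log2 fold change of siDDX41 against siCtrl (horizontal axis, 0 marked by a line) for the 15 tested linker genes and 17 of the 18 tested regulator genes, with bars for the standard error and colours for the class. The 4 plakins lie right of 0, and EHF (-2.67), CRYAB (-1.88), CD151 (-1.76) and JUP (-1.59) lie farthest left.

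For each tested member, the genes with the most similar profile were taken by the root-mean-square distance of log2 CPM over the 10 libraries, centred on the siCtrl mean, among 11278 genes with a mean of at least 5 CPM. KRT14 was closest to FOXS1 (distance 0.25), which had 22.0 and 2.62 CPM, followed by CA12 (0.33) and HSD17B3 (0.36). KRT18 was closest to SUN3 (0.05), FTL (0.055) and NETO1 (0.058), and KRT8 to DOLK (0.042) and JUN (0.047). NES was closest to DLG4 (0.034), NEO1 (0.037) and L1CAM (0.045), and KRT17 to ZSCAN16 (0.068), WBP1L (0.079) and MYORG (0.081). For VIM these were H3-3B (0.021), COPG2 (0.022) and SNHG16 (0.022), and for KRT7 DEAF1 (0.062), GTPBP3 (0.067) and HIP1R (0.068). The distance describes these libraries only. KRT14 had no gene as close as the other members had, but it was chosen among the strongest falls. Few of the compared genes fell as far. KRT14 also had only 34 to 66 reads in each siDDX41 library, and siDDX41 replicate 2 stood apart. The part of each in the distance was not tested.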

How the data were processed

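RNA-seq libraries of U2OS cells after control or DDX41 knockdown (5 each) were grouped by the sample labels. The authors prepared libraries with a strand-marking kit and, per the labels, used STAR 2.7 and featureCounts 1.6 on hg38. The authors deposited raw counts of reads for each gene. Strand setting and treatment of reads with several matches are not given in the sources used here. Genes were named by Ensembl identifier in GENCODE release 44, with a match for 98.7% of tested genes. The paper names an earlier GENCODE release for its mapping. Exon lengths and shared exon bases given here therefore come from a later annotation than the counts.

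The model across genes was fitted with edgeR 4.0.16 under R 4.3.3 (low counts removed with filterByExpr, TMM scaling, robust glmQLFit, glmQLFTest, Benjamini-Hochberg adjustment over all 16143 tested genes, adjusted p under 0.01). Each SE is the absolute log2 fold change divided by the root of its F value. DESeq2 1.42.0 was an alternative. Other steps used Python 3.11.15, scipy 1.17.1 and pandas 2.3.3. Tests were checked on simulated counts. Total counts of 21807041 to 24896398 limit precision for genes with few reads.

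The members and the gene lists were chosen with earlier results of these data known. Genes named are the members, DDX41, in each list up to 10 called genes with a mean of at least 5 CPM in either group and the largest change, all tested plakins and lamins, abundant markers, neighbours, pseudogenes and up to 3 of the most similar genes per member. Some genes that this takes in are not shown. Any other gene was named after its values were seen. Alternatives changed the test, scaling, filter, threshold, replicate block, exon length and the libraries used.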

Additional observations from a re-analysis of the deposited data

Results flagged for a closer look

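Among 78 sets of 5 libraries (a named gene in a group), 2 held a library far from the other 4, where chance gives about 1 in 20, or 3.9. For KRT14, siDDX41 replicate 2 had 2.87 CPM, and the nearest of the other knockdown libraries had 1.66 CPM. Without it the log2 fold change of KRT14 was -3.50. For MACF1, siDDX41 replicate 4 had 364 CPM, and the nearest of the others had 416 CPM. Why these libraries differ was not tested.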

How the results depend on the processing

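For the 7 tested members, all 112 log2 fold changes under 16 alternatives moved by less than 1 SD of the replicates. Leaving out 1 library of 5 can hardly move a value that far, so those alternatives test little. That of KRT7, near 0, lay between -0.098 and 0.005, so its sign depended on the libraries used. The 31 other genes were DDX41 and those that the naming rule takes from the 3 lists. KRT5 is among them, although it reached the cutoff on low counts in all siCtrl libraries only, so its 16 values test nothing. Of all 496 values, 488 kept direction and side of the threshold, 5 (all ITGB4) lost the call and 3 (LMNA, LMNB1) gained it. None of these values changed direction past the threshold, and markers, neighbours and other genes named beyond these were not run under the alternatives. The count of other intermediate filament genes called higher, 1, was 2 with DESeq2, 3 without the filter on low counts, 3 at an adjusted p under 0.05, and 1 to 2 with each library left out (2 without siCtrl replicate 2). The count called lower, 11, was 14 with DESeq2, 12 with total counts without TMM factors and 12 at an adjusted p under 0.05. It became 17 without the filter, where more genes are tested. For the other changes the cause was not tested.

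A fit that took replicate numbers as blocks called 4790 genes higher and 5097 lower, against 4890 and 5178 without them, and the counts for the 3 lists were as before. Same-numbered libraries did not deviate together (correlations of -0.0524 to 0.0446). No pairing by these numbers was thus seen, though a pairing with little shared deviation would not show here. Adding pseudogene reads to KRT8 and KRT18, chosen after seeing the data, gave log2 fold changes of 0.462 and 0.975. Depth limits genes such as KRT19, with 30 and 4 reads.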
